A study of Homo sapiens with 6 samples.

Results

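Cholesterol and fatty acid synthesis were followed through 35 genes: the enzymes that build cholesterol from acetyl-CoA, those that build, elongate and desaturate fatty acids, and the regulators of the SREBP transcription factors that control both. The 35 symbols were taken from a list of these pathways drawn up with earlier results of these data known, and all 35 were found among the 23619 gene symbols measured. They were divided by role into 18 genes of sterol synthesis, 7 of fatty acid and glycerolipid synthesis, 3 of acyl-CoA supply and 7 SREBP regulators or sterol handling genes.

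The measurements came from HG3, an established lymphoblastoid B cell line used as a model of chronic lymphocytic leukemia. A set of 3 pools labelled fludarabine-resistant was compared with 3 control pools, and the numbers 17, 18 and 28 occurred once in each group, in pairs according to the design text. Fludarabine is a purine nucleoside analogue used against this leukemia, and the question was whether resistant cells differ from their parental cells in the transcriptome as a whole. The series title speaks of transposon mutagenesis. Whether both groups carried transposon insertions, whether fludarabine was present at harvest, or whether each pool was a culture of its own throughout could not be learned from the labels. Hence p-values describe how far these libraries spread, which may be technical in part.

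Gene expression was given as FPKM, fragments scaled to transcript length and to the mapped fragments of the library. Relative depth, read from the steps in low values, ran over the resistant libraries between 1.05 and 1.32 and over the control libraries between 1 and 1.25. Between 10936 and 11331 genes reached an FPKM of 1 in a library. All 8 B cell markers were expressed, with a summed level of 2029 to 2947 FPKM in resistant libraries and 2124 to 2633 FPKM in control libraries, and no fibroblast marker of 6, 2 of 6 myeloid markers and 1 of 6 T cell markers passed the filter. The resistant library of pool 18 stood apart: with libraries weighted by how well they fitted their group, it received a weight of 0.162, and the other libraries received 1.03 to 1.93. A log2 difference over all libraries that moved by over 1.5 times without it, or without both libraries of pool 18, is followed by that value.

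SREBP precursors are held in the endoplasmic reticulum by SCAP and the INSIG proteins while sterols are plentiful. When sterols fall, SCAP carries the precursor to the Golgi, where proteases release the active factor. The SREBF2 product acts mainly on cholesterol synthesis and uptake and the SREBF1 product mainly on fatty acid synthesis, and both usually act together with NF-Y on their target promoters. Lymphocytes raise both pathways when they begin to divide, since membranes have to be made.

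Promoter windows are given first because this control is known for many of the listed genes, though not for all. RefSeq promoter windows of 300 bases, 250 before to 50 after a transcription start on GRCh38.p14, were matched by symbol for 31 of the 35 genes and gave 44 windows of 35116, since some genes have several starts. No window was matched for ACAT2, FDFT1, SQLE and FASN, so the motif counts do not cover these genes. The NF-Y box CCAAT, searched on both strands and so also read as ATTGG, occurred in 26 of the 44 windows (59.1%), against 34.6% of all windows. At least 2 such boxes stood in 17 of the 44 windows (38.6%), against 10.8% of all windows, and in 11 of the 20 windows of sterol synthesis genes (55%). The E-box CACGTG, a palindrome that an SREBP can also bind, occurred in 5 of the 44 windows (11.4%), against 7.26% of all windows. The sterol regulatory element in the form TCACNCCAC, searched on both strands, occurred in 1 of the 44 windows (2.27%), that of SREBF2, against 1.13% of all windows. A match describes these letters in this window and is not a binding site. The motifs do not overlap one another in the windows printed.

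Of the 4 windows printed here, that of SREBF2 holds the only TCACNCCAC match, and those of INSIG1, FDPS and MSMO1 were chosen after their expression was seen, as genes that were high in resistant pool 18. Each line gives the 250 bases before the start, on the plus strand of GRCh38.p14, and capitals mark matches to TCACNCCAC, CACGTG or CCAAT on either strand.
SREBF2, chr22:41832855-41833104: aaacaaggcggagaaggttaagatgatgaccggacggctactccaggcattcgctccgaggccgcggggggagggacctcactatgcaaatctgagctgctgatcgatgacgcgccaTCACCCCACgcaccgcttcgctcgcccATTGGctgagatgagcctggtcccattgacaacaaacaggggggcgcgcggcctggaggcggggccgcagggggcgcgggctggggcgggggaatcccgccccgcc
INSIG1, chr7:155297628-155297877: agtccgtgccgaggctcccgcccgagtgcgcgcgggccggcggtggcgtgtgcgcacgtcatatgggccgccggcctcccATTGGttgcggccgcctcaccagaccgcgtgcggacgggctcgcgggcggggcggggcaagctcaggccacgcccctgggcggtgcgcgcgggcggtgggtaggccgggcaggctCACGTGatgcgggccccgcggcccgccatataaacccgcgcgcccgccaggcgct
FDPS, chr1:155308616-155308865: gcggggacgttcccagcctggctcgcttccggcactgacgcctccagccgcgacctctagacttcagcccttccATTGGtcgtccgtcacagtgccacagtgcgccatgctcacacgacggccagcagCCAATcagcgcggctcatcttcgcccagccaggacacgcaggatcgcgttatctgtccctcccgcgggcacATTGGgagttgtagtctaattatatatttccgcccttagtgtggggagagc
MSMO1, chr4:165327419-165327668: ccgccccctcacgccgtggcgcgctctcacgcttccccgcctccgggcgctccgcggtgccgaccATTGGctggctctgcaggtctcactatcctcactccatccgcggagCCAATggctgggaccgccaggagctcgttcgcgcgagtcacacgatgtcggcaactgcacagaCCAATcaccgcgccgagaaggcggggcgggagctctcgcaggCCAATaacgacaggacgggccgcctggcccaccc
In SREBF2 the sterol element began 133 bases before the start and the NF-Y box 106 bases before it. In INSIG1 the E-box lay 55 bases before the start and the NF-Y box 170 bases before it. FDPS held 3 NF-Y boxes and MSMO1 held 4, and neither held the other motifs in these bases. Among windows not printed, that of CYP51A1, also highest in resistant pool 18, held none of these motifs. That of EBP, which was not highest there, held 3 NF-Y boxes. A link between motifs and levels was not tested. The deposited FPKM were made on hg19, and no coordinate was carried between the builds.

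All 35 genes were expressed in these B cells and passed the filter, which asked for 3 libraries with 1 FPKM or more. On the FPKM scale, which is per transcript length, FDPS was the highest in control pools at 124 ± 15.7 FPKM (SD, n = 3). It makes farnesyl diphosphate, the branch point between sterols and the isoprenoids that anchor proteins in membranes. SREBF2 followed at 64.1 ± 8.61 FPKM and LSS, which closes the sterol rings, at 62.6 ± 23.5 FPKM, and the ranges of this pair overlapped (57.7 to 73.9 and 38.9 to 86.0 FPKM). The lowest levels were those of TM7SF2 at 5.03 ± 0.669 FPKM, ACACA at 4.95 ± 1.26 FPKM and SC5DL at 4.42 ± 0.644 FPKM, and these ranges overlapped too. Of the 35 genes, 25 lay above the control median of all tested genes (11.1 FPKM) and 15 above its upper quartile (29.9 FPKM).

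Over all 6 libraries, no listed gene passed the test between fludarabine-resistant and control pools. The clearest differences ran both ways: the desaturase FADS2 was higher in every resistant library than in any control library, and AACS, LPIN1, SREBF2 and SCAP were lower in every resistant library. Most sterol synthesis genes were high in resistant pool 18 and showed no common direction in the resistant pools 17 and 28. Fatty acid synthase, stearoyl-CoA desaturase and acetyl-CoA carboxylase were lower in the resistant pools 17 and 28 than in their controls and higher in resistant pool 18.

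Differences were taken on log2(FPKM + 1), resistant minus control, and tested with limma over 11307 genes with Benjamini-Hochberg adjustment and a threshold of 0.05. The adjusted p of the 35 genes ran between 0.22 and 0.998, and the standard error of a difference between 0.15 and 0.46. Across all genes 4 passed (0.0354%). At an unadjusted limma p under 0.05 stood 2 of the 35 genes (5.71%), FADS2 and AACS, against 13.1% of all genes. FADS2 was the 1 listed gene higher without overlap (2.86%, against 10.1% of all genes), and 4 listed genes were lower without overlap (11.4%, against 11.1%). These shares lay near or under the background.

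**Figure D1:**
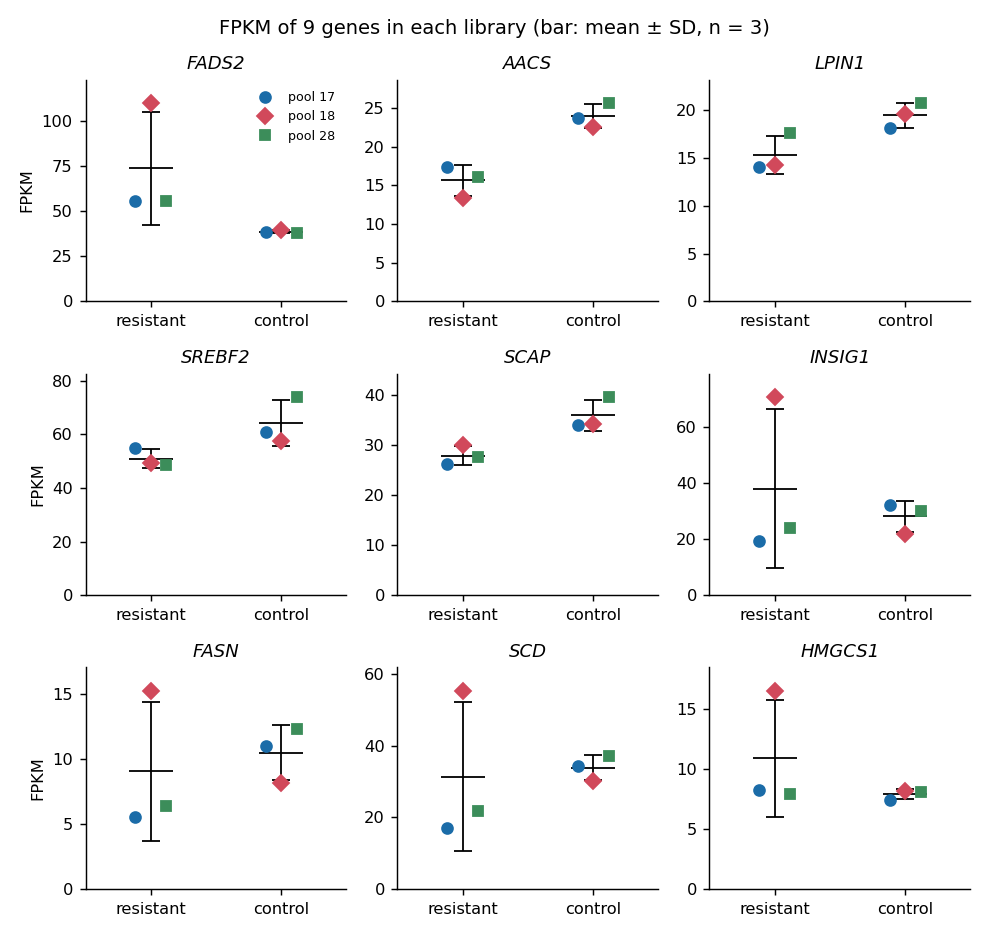
FPKM of 9 listed genes in each library (vertical axis, from 0) by group, with pools 17, 18 and 28 as circles, diamonds and squares and with the mean ± SD of 3 libraries. FADS2 lies above all controls in the 3 resistant libraries and AACS, LPIN1, SREBF2 and SCAP lie below them, while INSIG1, FASN, SCD and HMGCS1 are highest in resistant pool 18.

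The sterol branch begins with ACAT2, which joins acetyl-CoA molecules, and HMGCS1, which makes HMG-CoA. HMGCS1 stood at 8.21, 16.5 and 7.93 FPKM in the resistant pools 17, 18 and 28, against 7.41, 8.16 and 8.09 FPKM in the control pools. Resistant pool 18 was alone above the other libraries, which lay close together, and the groups overlapped. The mean was 10.9 ± 4.89 FPKM in resistant pools and 7.89 ± 0.416 FPKM in control pools (SD, n = 3 each), a log2 difference of 0.35 with a standard error of 0.27 (limma adjusted p = 0.621). Without resistant pool 18 the difference was 0.03, and without both libraries of pool 18 it was 0.05. ACAT2 was likewise highest in resistant pool 18, with 31.3, 71.6 and 36.3 FPKM in the resistant pools and 42.9, 32.4 and 39.2 FPKM in the control pools. Unlike HMGCS1, ACAT2 was lowest in resistant pool 17, under its own control. Its exons overlap those of TCP1 and SOD2 on the opposite strand, and whether strand was kept in counting is not given in the sources used here. Exons of MVK, SREBF1 and TMEM97 likewise overlap MMAB, RAI1 and IFT20 on the opposite strand, and those of CYP51A1 overlap unnamed genes on its own strand, so the levels of these genes are uncertain by any reads so shared.

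MVK and PMVK phosphorylate mevalonate and MVD decarboxylates the product. MVK stood at 13.4, 31.6 and 16.9 FPKM in the resistant pools, against 19.9, 12 and 15.1 FPKM in the control pools. MVD stood at 50.5, 80.8 and 56.0 FPKM in the resistant pools, against 53.4, 31.4 and 36.1 FPKM in the control pools, and its adjusted p of 0.381 was the lowest of the sterol branch (log2 difference 0.63, standard error 0.27, limma). The difference of MVD was 0.43 without resistant pool 18 and 0.27 without pool 18. Both were highest in resistant pool 18 and overlapped between the groups, and both were lowest in control pool 18. PMVK went the other way between the pools, with 45.1, 33.7 and 61.2 FPKM in the resistant pools, against 24.2, 47.9 and 27.3 FPKM in the control pools. It was higher in the resistant library of pools 17 and 28 and lower in that of pool 18, and the groups overlapped (log2 difference 0.50, standard error 0.32, limma adjusted p = 0.532; 0.71 without resistant pool 18 and 1.0 without pool 18).

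IDI1 isomerizes the isoprene unit, FDPS joins units to farnesyl diphosphate, and FDFT1 condenses that to squalene. FDPS stood at 139, 306 and 147 FPKM in the resistant pools, against 142, 117 and 112 FPKM in the control pools. IDI1 stood at 18.6, 54.9 and 39.2 FPKM in the resistant pools and 36.8, 22.6 and 32.1 FPKM in the control pools. FDFT1 stood at 35.2, 113 and 37.4 FPKM in the resistant pools and 53.0, 52.5 and 44.6 FPKM in the control pools. In each of the 3 genes resistant pool 18 was the highest library and resistant pool 17 lay under its own control. The mean of FDPS was 197 ± 93.9 FPKM in resistant pools and 124 ± 15.7 FPKM in control pools (SD, n = 3 each; log2 difference 0.58, standard error 0.32, limma adjusted p = 0.482). Its difference was 0.21 without resistant pool 18 and 0.18 without pool 18. FDPS has close pseudogene copies, and how the counting treated shared reads is not given in the sources used here.

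SQLE, the epoxidase that starts ring formation and a rate-limiting step, stood at 12.5, 25.8 and 14.2 FPKM in the resistant pools and 14.6, 13.4 and 11.5 FPKM in the control pools. Its mean was 17.5 ± 7.2 FPKM in resistant pools and 13.1 ± 1.56 FPKM in control pools (SD, n = 3 each), a log2 difference of 0.33 with a standard error of 0.27 (limma adjusted p = 0.646). That difference was 0.03 without resistant pool 18 and 0.04 without pool 18. Only resistant pool 18 lay above the highest control library. LSS, the cyclase, stood at 76.2, 63.7 and 94.0 FPKM in the resistant pools, against 86.0, 38.9 and 62.9 FPKM in the control pools. Its difference in pool 18 came with a low control library, since resistant pool 18 was the lowest of the resistant libraries.

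After lanosterol, CYP51A1 removes a methyl group, TM7SF2 reduces the product, and MSMO1, NSDHL and HSD17B7 remove the remaining methyl groups. CYP51A1 stood at 25.4, 77.3 and 26.6 FPKM in the resistant pools, against 34.0, 29.5 and 34.2 FPKM in the control pools. MSMO1 stood at 7.76, 27.4 and 12.3 FPKM in the resistant pools, against 13.8, 10.2 and 11.6 FPKM in the control pools. NSDHL stood at 10.8, 19.4 and 13.1 FPKM in the resistant pools, against 11.5, 8 and 10.2 FPKM in the control pools. All 3 were highest in resistant pool 18, and the resistant library of pool 17 lay under its control in each. HSD17B7, which also has a close pseudogene copy, shared that order with 15.8 FPKM in resistant pool 18 and 7.45 to 9.9 FPKM in the other 5 libraries. TM7SF2 did not: it stood at 8.67, 4.17 and 7.54 FPKM in the resistant pools and 5.73, 4.96 and 4.4 FPKM in the control pools, so that resistant pool 18 was the lowest library. Its exons overlap those of VPS51 on the same strand.

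EBP shifts the double bond in the sterol nucleus, SC5DL adds one, and DHCR7 performs a last reduction to cholesterol. DHCR7 stood at 13.2, 28.1 and 16.7 FPKM in the resistant pools, against 16.0, 10.9 and 13.9 FPKM in the control pools. SC5DL stood at 4.57, 6.75 and 4.39 FPKM in the resistant pools and 4.43, 3.78 and 5.06 FPKM in the control pools. Both were highest in resistant pool 18. EBP hardly varied, with 36.9, 42.3 and 38.2 FPKM in the resistant pools and 46.6, 43.8 and 36.9 FPKM in the control pools (log2 difference -0.11, standard error 0.16, limma adjusted p = 0.818; -0.16 without resistant pool 18).

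Taken by pool, 15 of the 18 sterol genes (83.3%) were more than 0.5 higher on the log2 scale in resistant pool 18 than in control pool 18, against 21.3% of all tested genes. More than 1 higher were 10 of the 18 (55.6%), against 5.41% of all genes. The exceptions among the 18 were PMVK, TM7SF2 and EBP, at -0.49, -0.21 and -0.05. In pool 17, 14 of the 18 genes were below 0, beside 5968 of the 11307 tested genes. Above 0.5 were 2 of the 18 (9.94% of all genes), and below -0.5 were 4 (9.3% of all genes). In pool 28, 13 of the 18 were above 0, beside 5579 of the 11307 tested genes. Above 0.5 were 4 of the 18 (22.2%, against 15.7% of all genes). With 1 library per pool and group, no test was made within a pool.

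The height of resistant pool 18 held against its own group. Across the sterol genes it lay a median of 0.89 above the mean of the other resistant libraries, while control pool 18 lay -0.23 from the mean of the other control libraries, so both libraries of the pair entered its difference. The summed level of the 18 genes was 546, 1018 and 637 FPKM in the resistant pools 17, 18 and 28, against 621, 498 and 513 FPKM in the control pools. Of the 18 genes 14 (77.8%) had their highest library in resistant pool 18, against 35.4% of all tested genes.

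Proliferation genes moved with the same library. The 16 genes of a proliferation list had a summed level of 696, 1613 and 599 FPKM in the resistant pools, against 830.5, 891 and 832 FPKM in the control pools. Their median difference was -0.23, 0.87 and -0.60 in pools 17, 18 and 28, with 13 of the 16 above 0.5 in pool 18 (21.3% of all genes) and 10 of the 16 below -0.5 in pool 28 (15.8% of all genes). Not all followed: MKI67, the Ki-67 antigen of dividing cells, stood at 5.29, 4.83 and 3.27 FPKM in the resistant pools and 7.71, 9.85 and 10.1 FPKM in the control pools (log2 difference -0.91, standard error 0.20, limma adjusted p = 0.182). TYMS, which makes thymidylate, stood at 25.3, 20.0 and 25.1 FPKM in the resistant pools and 45.2, 73.8 and 67.0 FPKM in the control pools (log2 difference -1.34, standard error 0.23, limma adjusted p = 0.158). The part of proliferation in the level of the sterol genes was not tested, and in bulk RNA fewer cells with a transcript and less of it per cell cannot be told apart.

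**Figure D2:**
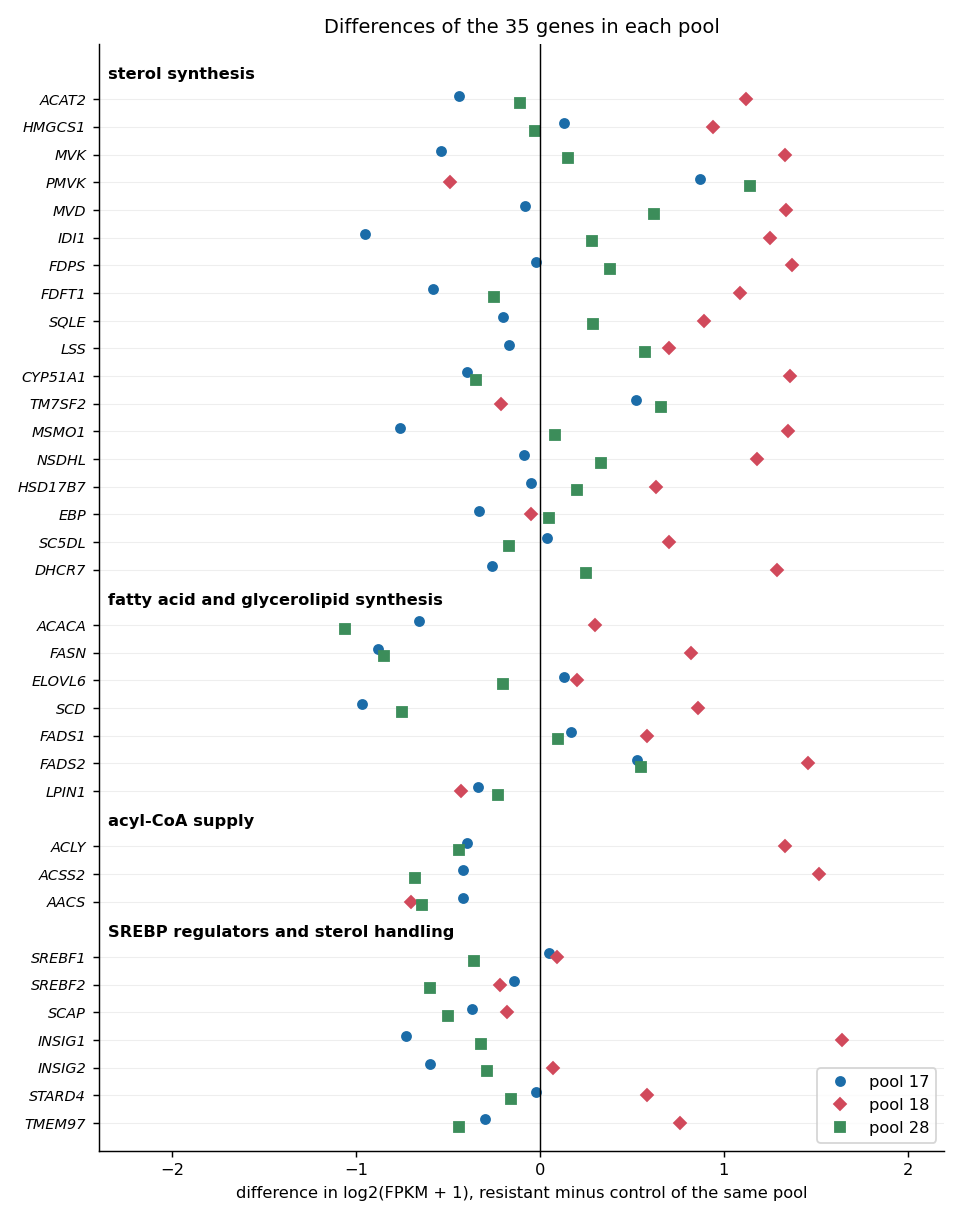
Difference in log2(FPKM + 1), resistant minus control of the same pool number (horizontal axis), for each of the 35 genes by role, with pools 17, 18 and 28 as circles, diamonds and squares. Pool 18 lies above 0.5 for 15 of the 18 sterol genes, and FASN and SCD lie below -0.5 in pools 17 and 28 and above 0.5 in pool 18.

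Fatty acid synthesis starts with ACACA, which makes malonyl-CoA, and FASN, which builds palmitate from it. FASN stood at 5.53, 15.2 and 6.39 FPKM in the resistant pools 17, 18 and 28, against 11.0, 8.14 and 12.3 FPKM in the control pools. Resistant pools 17 and 28 were the lowest libraries and resistant pool 18 the highest, so the groups overlapped. The mean was 9.03 ± 5.34 FPKM in resistant pools and 10.5 ± 2.14 FPKM in control pools (SD, n = 3 each), a log2 difference of -0.30 with a standard error of 0.35 (limma adjusted p = 0.755). Without resistant pool 18 the difference was -0.71 (limma adjusted p = 0.125), and without both libraries of pool 18 it was -0.87 (limma adjusted p = 0.161). ACACA stood at 2.04, 6.06 and 2.51 FPKM in the resistant pools and 3.8, 4.74 and 6.3 FPKM in the control pools, again with the resistant pools 17 and 28 lowest (log2 difference -0.47, standard error 0.34, limma adjusted p = 0.583). Its difference was -0.84 without resistant pool 18 and -0.86 without pool 18.

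SCD puts the first double bond into palmitate and stearate. It stood at 17.1, 55.2 and 21.6 FPKM in the resistant pools, against 34.4, 30.0 and 37.0 FPKM in the control pools. Its order of libraries matched that of FASN, with resistant pools 17 and 28 under every control and resistant pool 18 above every control. The mean was 31.3 ± 20.8 FPKM in resistant pools and 33.8 ± 3.56 FPKM in control pools (SD, n = 3 each), a log2 difference of -0.29 with a standard error of 0.40 (limma adjusted p = 0.803). Without resistant pool 18 it was -0.78 (limma adjusted p = 0.1), without both libraries of pool 18 it was -0.86 (limma adjusted p = 0.18), and without resistant pool 17 it was 0.04. FASN and SCD were the 2 listed genes that were below -0.5 in pools 17 and 28 and above 0.5 in pool 18, a pattern chosen after the values were seen and shown by 51 of all tested genes (0.451%).

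FADS2 and FADS1 desaturate polyunsaturated fatty acids and lie beside each other in the genome. FADS2 stood at 55.8, 109.8 and 55.7 FPKM in the resistant pools, against 38.3, 39.4 and 37.8 FPKM in the control pools. The 3 control libraries lay close together, all 3 resistant libraries lay above them, and resistant pool 18 lay far above the other resistant libraries. The mean was 73.8 ± 31.2 FPKM in resistant pools and 38.5 ± 0.803 FPKM in control pools (SD, n = 3 each), 1.92-fold higher in resistant pools. The log2 difference was 0.84 with a standard error of 0.28 (limma unadjusted p = 0.0186, adjusted p = 0.287), and the pools gave 0.53, 1.46 and 0.55. Without resistant pool 18 the difference was 0.52 (limma adjusted p = 0.109).

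FADS1 was higher in the resistant library of each pool, with 19.7, 24.8 and 16.8 FPKM in the resistant pools and 17.4, 16.2 and 15.6 FPKM in the control pools. Its lowest resistant library lay under its highest control, so the groups overlapped (log2 difference 0.28, standard error 0.18, limma adjusted p = 0.538; 0.14 without resistant pool 18). FADS1 and FADS2 were the 2 listed genes higher in all 3 pools (5.71%, against 18.9% of all genes). The exons of FADS1 and FADS2 overlap on opposite strands, and those of FADS2 also overlap FEN1, a nuclease of DNA replication, on the same strand. FEN1 stood at 36.1, 70.0 and 27.0 FPKM in the resistant pools and 30.1, 32.3 and 23.5 FPKM in the control pools (log2 difference 0.51, standard error 0.34, limma adjusted p = 0.56; 0.13 without resistant pool 18). The part of reads from overlapping genes in the level of FADS2 was not tested.

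ELOVL6, which elongates palmitate, showed no common direction, with 6.45, 9.47 and 6.46 FPKM in the resistant pools and 5.81, 8.1 and 7.56 FPKM in the control pools. LPIN1, a phosphatidate phosphatase of glycerolipid synthesis, stood at 14.1, 14.3 and 17.6 FPKM in the resistant pools, against 18.1, 19.6 and 20.7 FPKM in the control pools. Every resistant library of LPIN1 lay under every control library, by a small gap. The mean was 15.3 ± 1.93 FPKM in resistant pools and 19.5 ± 1.32 FPKM in control pools (SD, n = 3 each), a log2 difference of -0.33 with a standard error of 0.16 (limma adjusted p = 0.423).

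The 3 genes that supply acyl-CoA had different patterns. AACS activates acetoacetate for lipid synthesis and stood at 17.4, 13.4 and 16.1 FPKM in the resistant pools, against 23.7, 22.5 and 25.6 FPKM in the control pools. All resistant libraries lay under all control libraries, and the lowest was resistant pool 18, the library in which most other listed genes were highest. The mean was 15.6 ± 2.02 FPKM in resistant pools and 23.9 ± 1.57 FPKM in control pools (SD, n = 3 each), a ratio of 0.654. The log2 difference was -0.59 with a standard error of 0.16 (limma unadjusted p = 0.00764, adjusted p = 0.22), the smallest p among the 35 genes, and the pools gave -0.42, -0.70 and -0.64.

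ACLY cleaves citrate to acetyl-CoA and ACSS2 makes acetyl-CoA from acetate. ACLY stood at 38.3, 114 and 42.6 FPKM in the resistant pools and 50.9, 44.6 and 58.0 FPKM in the control pools. ACSS2 stood at 8.13, 22.3 and 6.12 FPKM in the resistant pools and 11.2, 7.15 and 10.4 FPKM in the control pools. Both were lower in the resistant library of pools 17 and 28 and higher in that of pool 18, at 1.33 for ACLY and 1.52 for ACSS2 on the log2 scale, and the groups overlapped in both.

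The SREBP factors themselves showed little of the pool 18 difference, at 0.09 for SREBF1, which centring libraries on their median turned to -0.01, and at -0.22 for SREBF2. SREBF1 stood at 12.3, 14.9 and 11.5 FPKM in the resistant pools, against 11.9, 13.9 and 15.0 FPKM in the control pools. SREBF2, whose promoter holds the sterol element printed above, stood at 55.0, 49.3 and 48.5 FPKM in the resistant pools, against 60.8, 57.7 and 73.9 FPKM in the control pools. SREBF1 overlapped between the groups, and every resistant library of SREBF2 lay under every control library. The mean of SREBF2 was 50.9 ± 3.52 FPKM in resistant pools and 64.1 ± 8.61 FPKM in control pools (SD, n = 3 each), a log2 difference of -0.32 with a standard error of 0.17 (limma adjusted p = 0.461). For SREBF1 the mean was 12.9 ± 1.76 FPKM in resistant pools and 13.6 ± 1.59 FPKM in control pools (log2 difference -0.07, standard error 0.17, limma adjusted p = 0.889; -0.17 without resistant pool 18). Transcript levels do not show how much of either factor was cleaved to its active form.

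SCAP, the escort of the SREBP precursors, stood at 26.1, 29.9 and 27.6 FPKM in the resistant pools, against 34.0, 34.1 and 39.5 FPKM in the control pools. All resistant libraries lay under all control libraries. The mean was 27.8 ± 1.9 FPKM in resistant pools and 35.9 ± 3.16 FPKM in control pools (SD, n = 3 each), a log2 difference of -0.35 with a standard error of 0.15 (limma adjusted p = 0.386). AACS, LPIN1, SREBF2 and SCAP were the 4 listed genes lower in all 3 pools (11.4%, against 18.7% of all genes).

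INSIG1, which retains SCAP and is itself a sensitive SREBP target, stood at 19.2, 70.8 and 24.1 FPKM in the resistant pools, against 32.4, 22.0 and 30.2 FPKM in the control pools. It had the largest pool 18 difference of the 35 genes at 1.64, beside -0.73 in pool 17 and -0.32 in pool 28. The mean was 38.0 ± 28.5 FPKM in resistant pools and 28.2 ± 5.45 FPKM in control pools (SD, n = 3 each), a log2 difference of 0.20 with a standard error of 0.46 (limma adjusted p = 0.888). Its direction turned without resistant pool 18, at -0.36, and without both libraries of pool 18, at -0.52. INSIG2, the other anchor, stood at 3.75, 5.68 and 3.38 FPKM in the resistant pools and 6.19, 5.34 and 4.36 FPKM in the control pools, and the groups overlapped.

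STARD4, which carries cholesterol between membranes, stood at 44.2, 69.8 and 38.2 FPKM in the resistant pools and 44.8, 46.4 and 42.8 FPKM in the control pools. TMEM97, a membrane protein known to bind the cholesterol exporter NPC1, stood at 8.61, 22.4 and 7.41 FPKM in the resistant pools and 10.9, 12.8 and 10.4 FPKM in the control pools. Both were highest in resistant pool 18 and lowest in resistant pool 28. Neither differed beyond its spread: the standard errors were 0.24 and 0.38 around log2 differences of 0.13 and 0.01, which were -0.12 and -0.45 without resistant pool 18. The sign of TMEM97 also flipped with a pseudocount of 0.1, with median centring and with quantile normalization.

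Set side by side, the sterol branch lay above the fatty acid branch in each pool with the filter used here. With only genes of a mean FPKM of at least 5, the order turned in pool 17, where the sterol median was -0.20 and the fatty acid median -0.10. The median difference of the 18 sterol genes was -0.19, 1.10 and 0.22 in pools 17, 18 and 28, and that of the 7 fatty acid and glycerolipid genes was -0.34, 0.58 and -0.23. The sterol median was therefore higher by 0.15, 0.52 and 0.45. Over all 6 libraries the medians were 0.32 and -0.29, a gap of 0.61, and the median of all tested genes was 0.01. With only genes of a mean FPKM of at least 5, the fatty acid median was -0.12 and the gap 0.45. The gap was 0.44 with a pseudocount of 5 and 0.64 with 0.1. Members of a branch share their libraries and are not replicates, so no test was made of the gap. It stood at 0.31 without resistant pool 18 and at 0.30 without both libraries of pool 18, where the sterol median was 0.02 in each case and the fatty acid median -0.29 and -0.28. Counting ACLY, ACSS2 and AACS in the fatty acid branch gave gaps of 0.22, 0.40 and 0.76 in the pools and 0.44 over all libraries.

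**Figure D3:**
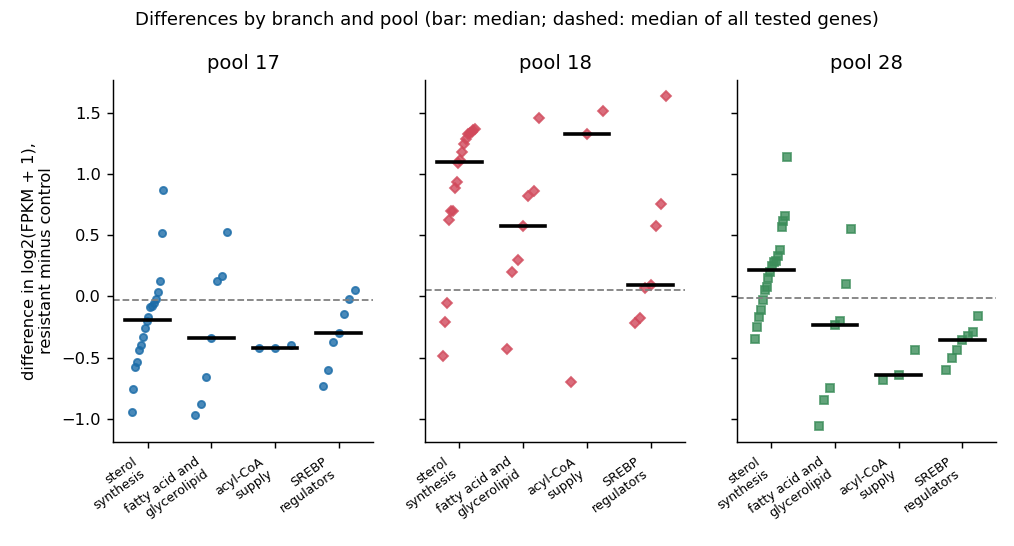
Difference in log2(FPKM + 1), resistant minus control (vertical axis), of the genes of each role in pools 17, 18 and 28. Each point is a gene, bars are medians and the dashed line is the median of all tested genes; the sterol bar stands at -0.19, 1.10 and 0.22 and the fatty acid bar at -0.34, 0.58 and -0.23.

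The median of the regulators and handling genes was -0.30, 0.09 and -0.36 in the pools 17, 18 and 28, while that of the acyl-CoA supply genes at -0.42, 1.33 and -0.64. In pool 28 all 7 regulators and handling genes and all 3 supply genes were below 0, beside 5 of the 7 fatty acid genes and 5 of the 18 sterol genes. In pool 17 these counts were 6 of 7, 3 of 3, 4 of 7 and 14 of 18. Of the 11307 tested genes, 5725 were below 0 in pool 28 and 5968 in pool 17. Over the 35 genes, 7 lay below -0.5 in pool 28 (20%, against 15.8% of all genes) and none of the 7 was a sterol gene, and 9 lay below -0.5 in pool 17 (25.7%, against 9.3%), of which 4 were sterol genes. In pool 18, 24 of the 35 (68.6%) lay above 0.5, against 21.3% of all genes, and 1 lay below -0.5 (2.86%, against 19.7%), which was AACS.

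**Figure D4:**
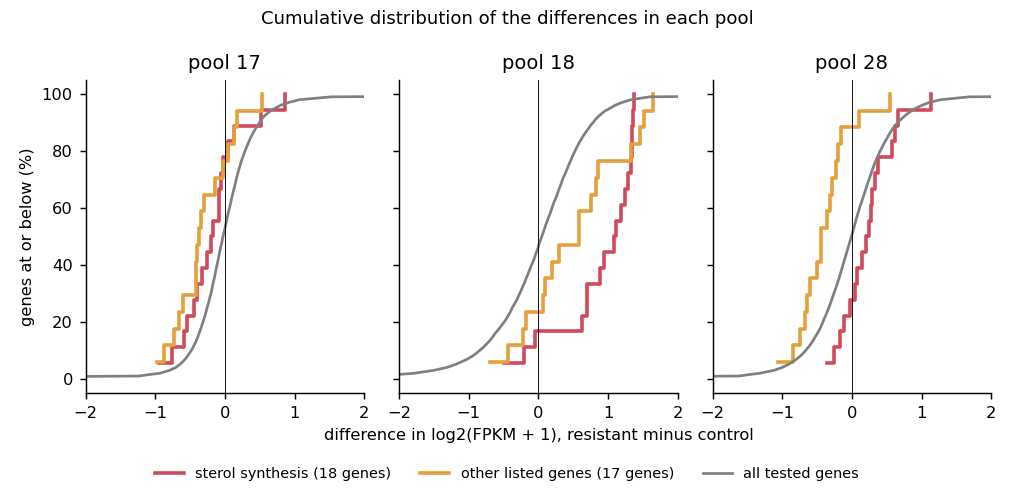
Percent of genes (vertical axis) at or below each difference in log2(FPKM + 1), resistant minus control (horizontal axis), for the 18 sterol genes, the other 17 listed genes and all tested genes in each pool. In pool 18 the sterol curve lies to the right of the other curves around its median of 1.10, and in pool 28 the other listed genes lie to the left of all tested genes.

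With both libraries of pool 18 left out, 9 listed genes were lower at an unadjusted limma p under 0.05, against 9.25% of all genes, and 3 were higher, against 8.91%. The lower genes were CYP51A1, ACACA, FASN, SCD, ACLY, ACSS2, AACS, SCAP and INSIG1, and the higher ones were PMVK, TM7SF2 and FADS2. None passed the threshold over all genes, and the lowest adjusted p was 0.161. In these pools 15 listed genes were lower without overlap, against 29.3% of all genes, and 3 were higher without overlap, against 26%.

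Other genes of the pathway were taken from 6 companion lists, and none of their genes passed the threshold. Among 9 genes of SREBP processing and sterol-regulated degradation the median difference was -0.03, with 1 gene higher (10.1% of all genes) and 2 lower (11.1%) without overlap. The lower ones were MBTPS2, a Golgi protease that releases SREBP, and ERLIN1, which takes part in the degradation of sterol enzymes. MBTPS2 stood at 0.882, 1.21 and 0.879 FPKM in the resistant pools, against 1.38, 2.78 and 4.19 FPKM in the control pools (log2 difference -0.86, standard error 0.29, limma adjusted p = 0.294). Its resistant libraries lay near the filter of 1 FPKM. The size of its difference hung on the pseudocount, at -1.29 with 0.1 and -0.36 with 5. ERLIN1 stood at 4.75, 6.68 and 5.4 FPKM in the resistant pools, against 6.9, 8.48 and 9.57 FPKM in the control pools (log2 difference -0.50, standard error 0.19, limma adjusted p = 0.333).

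Sterol efflux, storage and LXR genes gave 13 tested genes of 16, a median of -0.02, and 5 genes lower (11.1% of all genes) and 0 higher (10.1%) without overlap. NPC1, which moves cholesterol out of lysosomes, stood at 10.4, 9.77 and 12.3 FPKM in the resistant pools, against 18.8, 20.4 and 30.9 FPKM in the control pools. All resistant libraries lay well under all control libraries, with a mean of 10.8 ± 1.3 FPKM in resistant pools and 23.4 ± 6.56 FPKM in control pools (SD, n = 3 each; log2 difference -1.02, standard error 0.22, limma adjusted p = 0.179). With array weights its adjusted p was 0.0457. SCARB1, a receptor for high-density lipoprotein, stood at 26.6, 33.8 and 36.4 FPKM in the resistant pools, against 46.5, 46.7 and 53.6 FPKM in the control pools (log2 difference -0.59, standard error 0.18, limma adjusted p = 0.248).

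The 14 genes of other mevalonate products, such as prenylation and dolichol, had a median of 0.03 and none without overlap. The smallest p were those of ZMPSTE24, which trims prenylated proteins (log2 difference 0.44, standard error 0.22, limma adjusted p = 0.447), and DHDDS, which makes the dolichol chain (0.32, standard error 0.21, adjusted p = 0.565). Without resistant pool 18 the differences were 0.23 for ZMPSTE24 and 0.10 for DHDDS. Both were highest in resistant pool 18, at 16.3 and 13.7 FPKM.

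Of the genes of fatty acid elongation, desaturation and activation, 16 of 23 were tested, with a median of -0.10 and 3 lower (11.1% of all genes) and 0 higher (10.1%) without overlap. ME1, which makes NADPH for fatty acid synthesis, stood at 0.735, 2.21 and 0.859 FPKM in the resistant pools, against 3.03, 2.59 and 3.23 FPKM in the control pools. Its libraries had the order of FASN in pools 17 and 28, and its resistant pool 18 lay just under its control (log2 difference -0.85, standard error 0.26, limma adjusted p = 0.252). With array weights, where 301 of all genes passed, the limma adjusted p of ME1 was 0.0334. At these low levels its difference moved with the pseudocount, to -1.31 with 0.1 and to -0.35 with 5. FADS3, a further gene of the FADS cluster, was lower where FADS1 and FADS2 were higher, with 19.1, 11.9 and 15.7 FPKM in the resistant pools and 20.6, 25.0 and 21.3 FPKM in the control pools (log2 difference -0.51, standard error 0.20, limma adjusted p = 0.359; -0.34 without resistant pool 18 and -0.26 without pool 18).

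Phospholipid and triglyceride synthesis gave 20 tested genes of 22, a median of -0.20, and 1 gene higher (10.1% of all genes) and 4 lower (11.1%) without overlap. LPIN2, a relative of LPIN1, was lower without overlap, at 6.08, 7.92 and 5.83 FPKM in the resistant pools and 8.53, 9.8 and 10.6 FPKM in the control pools (log2 difference -0.49, standard error 0.17, limma adjusted p = 0.304). PCYT1A, which controls phosphatidylcholine synthesis, was higher without overlap, at 15.1, 18.5 and 15.0 FPKM in the resistant pools and 14.2, 11.6 and 11.9 FPKM in the control pools (log2 difference 0.34, standard error 0.16, limma adjusted p = 0.426; 0.20 without pool 18).

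Fatty acid oxidation, the opposing pathway, gave 20 tested genes with a median of -0.01, of which 2 were higher (10.1% of all genes) and 1 lower (11.1%) without overlap. CPT1A, which admits fatty acids to the mitochondrion, stood at 8.14, 8.02 and 8.13 FPKM in the resistant pools, against 13.6, 16.0 and 26.8 FPKM in the control pools. The resistant libraries lay close together under a wide range of controls (mean 8.09 ± 0.0649 FPKM in resistant pools and 18.8 ± 7.05 FPKM in control pools, SD, n = 3 each; log2 difference -1.07, standard error 0.25, limma adjusted p = 0.192). ACADM, a dehydrogenase of medium-chain fatty acids, stood at 40.9, 67.5 and 40.3 FPKM in the resistant pools, against 31.0, 35.5 and 22.8 FPKM in the control pools (log2 difference 0.70, standard error 0.26, limma adjusted p = 0.336; 0.46 without resistant pool 18).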

How the data were processed

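RNA of 3 fludarabine-resistant and 3 control pools of HG3 was measured, 1 library each. The deposited values were FPKM for 23619 symbols, per the file headers. Per the submitters' processing notes, the build was hg19 and the tools were Cufflinks 2.2.1, TopHat2 2.0.4, DESeq2 and HTSeq 0.6.1; the sources used here give neither their roles nor the annotation, RNA selection or strand. Total RNA came from an RNeasy Plus Mini kit, per the labels' protocols.

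No counts were used, so no counting error could be given. Genes that reached 1 FPKM in 3 or more libraries were tested on log2(FPKM + 1), which understates differences of low genes, with limma 3.58.1 in R 4.3.3 (two-sided, eBayes with the mean-variance trend, Benjamini-Hochberg over all genes). The script was run on simulated data with known changes and equal noise in every library. That run does not show how the fit performs with a library that stands apart, as resistant pool 18 did. Pool differences subtract the control from the resistant library of the same number. These pairs come from the design text and the shared numbers; deviations from the group means correlated at 0.148, 0.0892 and -0.0243 in pools 17, 18 and 28, and the fit had no block.

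The genes, lists and naming rules were chosen with earlier results of these data known. Full values were given by rule for listed genes at an unadjusted p under 0.05 or without overlap and for 8 set genes, and other listed genes are described beside them. Each companion list gave up to 4 passing genes, otherwise the 2 of smallest p. Exon overlaps came from GENCODE release 29 and promoter windows from RefSeq on GRCh38.p14. Alternatives were other pseudocounts (0.1 and 5), filters and scalings, array weights, the pool block, and leaving out libraries or pools.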

Additional observations from a re-analysis of the deposited data

How the results depend on the processing

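No listed gene passed the threshold under any alternative run. With the pool number as a replicate block, 3 of all genes passed and 1458 had an unadjusted p under 0.05, with adjusted p of 0.301 for FADS2 and 0.301 for AACS, and the block changed no call among the listed genes. Over all alternatives the adjusted p ran between 0.0731 and 0.923 for FADS2 and between 0.0672 and 0.923 for AACS. With array weights 301 of all genes passed, 2998 of all genes and 10 listed genes had an unadjusted p under 0.05, the gap between the sterol and fatty acid branches was 0.38, INSIG1 turned to -0.23, and NPC1, ME1, TYMS and MKI67 passed. Of the 35 listed genes, 4 had an unadjusted limma p under 0.05 under median centring and 4 under quantile normalization. Of the 11307 tested genes, 1536 and 1540 did. Under both scalings 2 listed genes were higher without overlap. Lower without overlap were 4 under median centring and 5 under quantile normalization. The shares of all genes were not taken under these scalings, so these counts have no background of their own. In the main setting the shares were 10.1% higher and 11.1% lower. With the acyl-CoA supply genes in the fatty acid branch the gap was 0.44.

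Leaving out a library or a pool gave 3 (without control pool 28) to 18 (without pool 18) genes past the threshold over all genes, with 13 without resistant pool 18 and 8 without resistant pool 17, against 4 with all libraries. The count at an unadjusted p under 0.05 ran from 545 (without pool 28) to 2640 (without resistant pool 18) over the 11307 tested genes. Over the 35 listed genes it ran from 1 (without control pool 28 or pool 28) to 12 (without pool 18). The extremes came partly from different settings: 2053 of all genes were counted without pool 18, 729 without control pool 28, and 10 listed genes without resistant pool 18. Listed genes without overlap numbered 1 to 11 higher, the most without pool 17, where 20.7% of all genes were, and 4 to 15 lower, the most without pool 18, where 29.3% of all genes were. With the filter of a mean FPKM of at least 5, the sterol median in pool 17 lay below the fatty acid median, at -0.20 and -0.10. The sterol median ran from 0.02 to 0.55, the fatty acid median from -0.32 to 0.04, the regulator median from -0.37 to 0.07, and the gap between branches from 0.30 to 0.60, with 0.37 without pool 28. SREBF1 ran from -0.17 to 0.07, turning to 0.00 without resistant pool 28 and 0.07 without pool 28. INSIG1 ran from -0.52 to 0.66, with -0.36 without resistant pool 18 and -0.52 without pool 18. SCD ran from -0.86 to 0.05, with 0.04 without resistant pool 17 and 0.05 without pool 17. The cause of these shifts was not tested. Depth is known only relative to 1 library, and 3 libraries a group leave standard errors of 0.15 to 0.46 for the listed genes. Differences of several standard errors also failed the threshold. AACS, at -0.59 with a standard error of 0.16, had a limma adjusted p of 0.22. The lack of a passing listed gene therefore does not show that these genes were unchanged.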
